A study of Mus musculus with 24 samples.

Results

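Sorted cells of the atrioventricular (AV) canal were compared with sorted cells of the working myocardium in mouse embryos at embryonic stage E10.5. The comparison takes up 12 of the 24 arrays of a study of the AV conduction system, chosen by their stage label: 6 arrays of AV canal and 6 of working myocardium. The AV canal cells came from Tbx3BAC-Egfp embryos, in which a bacterial artificial chromosome with the Tbx3 locus drives green fluorescent protein, and the working cells from NppaBAC336-Egfp embryos, in which an Nppa-based construct does. No other allele or treatment is named for either group, and all embryos developed normally. Each sample pooled the fluorescent tissue of several hearts, which was dissociated and sorted by fluorescence, and RNA came from 5000 gated cells. That RNA was amplified linearly in 2 rounds, labelled with biotin and applied to an Illumina Mouse-Ref-6 BeadChip, with a separate array for each sample. The samples are labelled as biological replicates. Because each tissue came from its own transgenic line, line and tissue cannot be told apart. In bulk samples, fewer cells of a type and less RNA per cell cannot be told apart either.

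The AV canal is the narrow segment between the atria and ventricles of the embryonic heart. Its muscle conducts slowly, in contrast to the fast-conducting chamber muscle on both sides, and is known to be kept from the chamber programme by the T-box repressors Tbx2 and Tbx3, downstream of bone morphogenetic protein (BMP) signalling. It also lies over the endocardial cushions, where signals from the muscle are known to make endocardial cells turn into the mesenchyme of the future valves.

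Levels are given as log2 of quantile-normalised intensity. A background correction with an added offset puts undetected probes near 6 on this scale and understates differences of dim genes. Differences are AV canal minus working myocardium, with the standard error (SE) from limma, and a gene was called when its limma p-value, adjusted by the Benjamini-Hochberg method over 46632 probes, was under 0.05. Each of 17711 genes is represented by its brightest probe. Of these, 3408 were called (19.2%), with 1582 higher in the AV canal (8.93%) and 1826 lower (10.3%). At least a 2-fold difference was reached by 467 of the higher genes (2.64% of those tested) and 258 of the lower ones (1.46%). The arrays of the tissues did not overlap for 3056 of all probes (6.55%). Among the 8587 genes above background on all 12 arrays, 32.3% were called, 13.3% as higher and 18.9% as lower. The direction of the split depends on the scaling: 45.01% of called probes were higher in the AV canal with quantile normalisation and 56.1% with median scaling, although the median of all probes moved by under 0.1 with each.

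Each of the 12 arrays correlated best with its own group's mean, but a few stood apart in markers of other cell types. Median raw intensity was 110.2 to 132.8 per array, and 39.0% to 43.2% of probes were above background. Working replicates 5 and 6 had the lowest levels of endothelial, mesenchymal and epicardial markers and were low in erythroid markers. AV canal replicate 4 carried cardiomyocyte markers at the level of the working arrays, and AV canal replicate 6 had the lowest endothelial and epicardial levels of its group. A code in the sample names, read here as the slide, puts replicates 1 to 3 on slide 1, for each tissue, and replicates 4 to 6 on slide 2. Within slide 1 alone 4317 probes were called (9.26%), and within slide 2 alone 1454 (3.12%), against 5686 in the whole comparison (12.2%) and 6177 with slide as a block. Over genes the shares were 15.2% within slide 1 and 4.93% within slide 2. The tissue difference itself differed between slides for 1 probe of 46632 (0.00214%) in limma, and for 2301 probes at an unadjusted p under 0.05. In simulated data this test recovered 19.4% of slide differences of 1 and 82.1% of those of 2 on the log2 scale. The single call therefore does not show that the slides agree.

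Tbx3 and Nppa, whose constructs were used to sort the cells, check the labels. Tbx3 was at 10.23, 10.10, 10.14, 10.55, 9.97 and 9.61 in working replicates 1 to 6 and at 12, 11.73, 11.17, 12.88, 11.95 and 12.71 in AV canal replicates 1 to 6. Nppa, which encodes atrial natriuretic factor, was at 15.55, 15.34, 15.21, 15.10, 15.65 and 15.67 in the working replicates and at 12.49, 12.42, 12.79, 13.08, 12.26 and 9.03 in the AV canal replicates. Neither gene's groups overlapped, and all 12 libraries had the level their label calls for. The Tbx3 difference was 1.97 (SE 0.25, limma adjusted p = 2.13e-04), with 1.48 on slide 1 and 2.47 on slide 2, and a second Tbx3 probe gave 2.17. The Nppa difference was −3.41 (SE 0.54, limma adjusted p = 9.20e-04). Its probe read at up to 82.7% of the brightest value of its array in working cells, where differences can be compressed, and a second, dimmer probe gave −3.46. Tbx3 RNA was present in working cells and Nppa RNA in AV canal cells, both above background on 6 of 6 arrays. AV canal replicate 6 stood far below the other 5 for Nppa. Without AV canal replicates 4 and 6 the Nppa difference was −2.91, and within slide 2 alone it was −4.01 and not called.

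Nppa and Gja5, the chamber genes with the largest decreases in the AV canal among the genes named by rule, are also genes at which T-box factors are known to act, so their promoters are shown. The sequences come from RefSeq (GRCm38.p6), both on the plus strand, and run from upstream of the annotated start to shortly after it. Capitals mark the T-box core AGGTGT or its reverse complement ACACCT, and the NKX core AAGTG or its reverse complement CACTT. The Nppa window is chr4:148000472-148000771 and the Gja5 window is chr3:97032152-97032451.
Nppa: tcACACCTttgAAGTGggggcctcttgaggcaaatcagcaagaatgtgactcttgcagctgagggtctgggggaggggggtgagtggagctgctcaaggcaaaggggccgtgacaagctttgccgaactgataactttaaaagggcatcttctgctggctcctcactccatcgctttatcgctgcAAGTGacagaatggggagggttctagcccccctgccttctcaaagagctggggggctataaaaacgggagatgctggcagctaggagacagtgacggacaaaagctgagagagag
Gja5: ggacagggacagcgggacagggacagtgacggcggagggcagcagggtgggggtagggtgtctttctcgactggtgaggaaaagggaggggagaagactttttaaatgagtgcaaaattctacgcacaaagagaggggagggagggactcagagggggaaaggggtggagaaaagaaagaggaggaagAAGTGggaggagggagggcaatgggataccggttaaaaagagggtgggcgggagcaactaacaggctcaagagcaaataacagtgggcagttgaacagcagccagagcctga
In the Nppa window the T-box core lay at −248 from the start, on the strand opposite to the gene, and NKX cores at −239 and −65. The Gja5 window held an NKX core at −62 and no T-box core, and the window of Nppb held neither motif. Among 32851 promoters of the same length, 13.7% held the T-box core and 46.4% the NKX core on either strand. Promoters were found for 10 of the 15 leading genes higher in the AV canal, of which 3 held the T-box core, and for 13 of the 15 leading genes lower in it, of which 2 did. The NKX core stood in 4 of those 10 and 6 of those 13. A match of letters is a description and not a binding site.

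Transcription factors and signals of the AV canal were higher in AV canal cells. Of 15 listed genes, 9 were called higher and 0 lower in limma (also 0 lower at an unadjusted p under 0.05), against 8.93% and 10.3% of all genes, and the median difference of the list was 0.73, against −0.01 over all genes. The 9 were Tbx2, Tbx3, Bmp4, Msx1, Msx2, Id2, Rspo3, Tgfb2 and Tbx18. Tbx3 was the gene used to sort the AV canal cells, so its direction follows from the sorting. Bmp2 was at background on all 12 arrays, so its probe says nothing about its level. Without working replicates 5 and 6 the count was 7. Within slide 1 alone 8 members were called higher and 1 lower, and within slide 2 alone 5 higher and 0 lower. The member called lower on slide 1 was Shox2, a homeobox gene of the sinus node, which differed by −1.73 there, by 1.28 on slide 2 and by −0.23 over both (limma adjusted p = 0.92). The difference between its slides was not called (limma adjusted p = 0.99), and its AV canal values ran from 7.51 to 12.35. Msx1, a homeobox gene of the canal and cushions, had the largest increase of the genes named by rule. It ranged from 5.99 to 7.91 in working cells (median 7.53) and from 10.46 to 11.36 in AV canal cells (median 11.21), groups that lay far apart. Its difference was 3.92, or 15.1-fold (SE 0.30, limma adjusted p = 6.64e-06). It was above background on only 4 of the 6 working arrays, with working replicates 5 and 6 the lowest at 6.47 and 5.99, and the difference was 3.45 without those 2. A second, dimmer Msx1 probe, not above background on any working array, was also called higher (limma adjusted p = 0.0079). Its paralog Msx2 ranged from 7.17 to 7.49 against 8.18 to 9.65 and differed by 1.52 (SE 0.19, limma adjusted p = 1.86e-04).

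**Figure D1:**
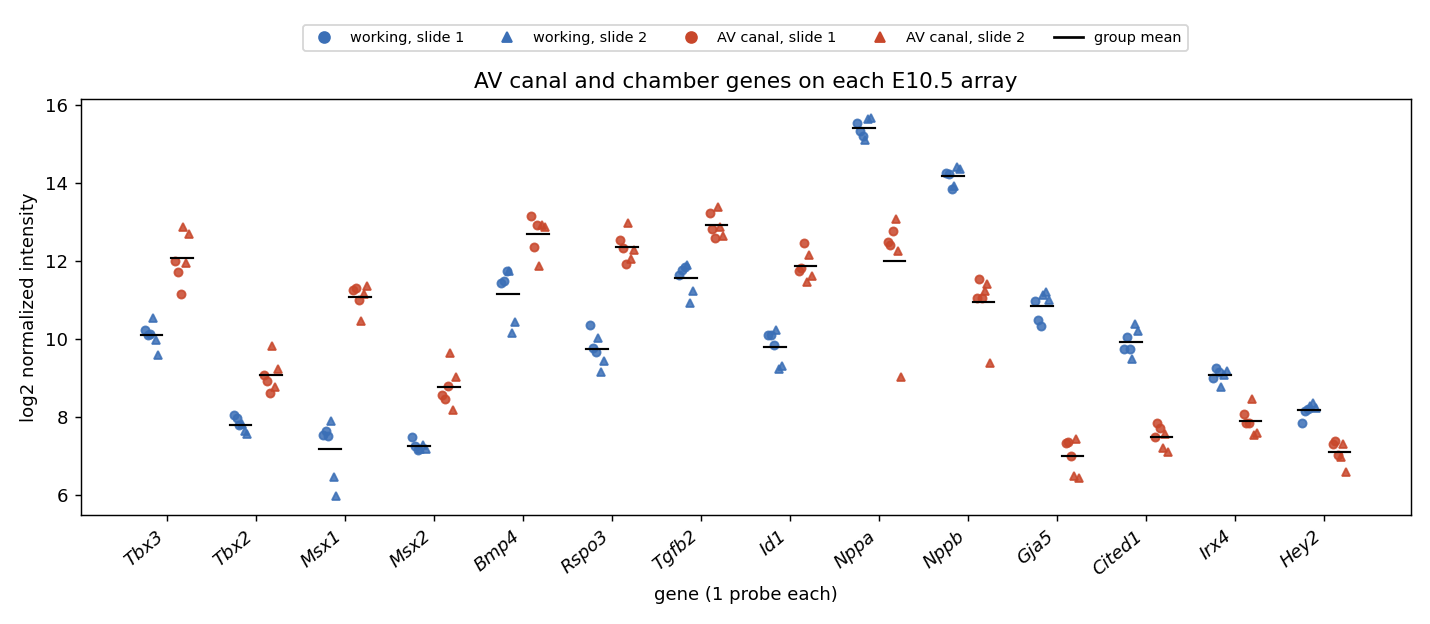
Log2 normalised intensity of 14 genes on each of the 12 arrays, with working myocardium in blue, AV canal in red, circles for slide 1, triangles for slide 2 and a line at each group mean. For Msx1 the highest working array was at 7.91 and the lowest AV canal array at 10.46; 1 AV canal array stood at 9.03 for Nppa.

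Tbx2, the repressor closest to Tbx3, also separated the tissues. It ranged from 7.58 to 8.07 in working cells (median 7.81) and from 8.63 to 9.82 in AV canal cells (median 9.01), a difference of 1.27 (SE 0.17, limma adjusted p = 2.53e-04). Rspo3, a secreted amplifier of Wnt signalling, ranged from 9.17 to 10.37 against 11.94 to 12.98 and was 6.12-fold higher (SE 0.21 on the log2 scale, limma adjusted p = 7.82e-06). Tgfb2, the TGF-beta ligand of cushion formation, ranged from 10.94 to 11.90 against 12.60 to 13.40, a difference of 1.37 (SE 0.18). None of these 3 genes had overlapping groups. Tbx3, Tbx2, Msx2, Rspo3 and Tgfb2 all had their highest value in AV canal replicate 4, at 12.88, 9.82, 9.65, 12.98 and 13.40. That is the AV canal array with the lowest summed intensity of mesenchymal markers. Bmp4 and Msx1 had their lowest AV canal values there, at 11.88 and 10.46. All of these are values of a single array, and their cause was not tested. Tbx18, a T-box gene of the inflow tract and epicardium, was called at a difference of 0.60 (limma adjusted p = 0.024) with overlapping groups, and lost the call within each slide and without working replicates 5 and 6.

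The BMP and TGF-beta pathway held members higher and members lower in the AV canal, with its Id genes among the higher ones. Of 31 measured members 11 were called higher, 4 lower and 16 neither, with a median difference of 0.20. That is 48.4% called, against 19.2% of all genes and 32.3% of genes above background on all arrays. The lower count alone is near the 10.3% of all genes called lower. All 4 Id genes, which encode dominant-negative helix-loop-helix proteins and are known direct targets of BMP signalling, were higher. Id1 ranged from 9.25 to 10.25 in working cells and from 11.47 to 12.47 in AV canal cells, a difference of 2.07 (SE 0.21, limma adjusted p = 3.68e-05). Id3 differed by 1.89, Id4 by 0.86 and Id2 by 0.73, and the groups overlapped for Id2, whose call was lost without working replicates 5 and 6. Other known targets were not called: Bambi, a pseudoreceptor, was above background on 1 of 12 arrays, and the inhibitor Smad7 on none. Among ligands, Bmp4 ranged from 10.17 to 11.75 against 11.88 to 13.17 and was higher by 1.53 (SE 0.30, limma adjusted p = 0.0042). Bmp7 went the other way. It ranged from 11.44 to 11.97 in working cells and from 9.82 to 11.06 in AV canal cells, a difference of −1.62 (SE 0.18, limma adjusted p = 7.50e-05), and its AV canal replicate 4, at 11.06, stood above the other 5. Bmp5 differed by −0.53, close to the threshold (limma adjusted p = 0.040), and lost the call within slide 2, with median scaling and without working replicates 5 and 6. The receptor genes Acvr1 and Tgfbr2 were called higher and Bmpr1b and Tgfbr3 lower. Leaving out working replicates 5 and 6, the pathway had 7 higher and 3 lower, and within slide 2 alone 2 and 2.

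Of the Notch receptors, Notch1, Notch3 and Notch4 were higher in the AV canal, and Notch2 was at background on all 12 arrays. The ligands Jag1 and Jag2 were lower, and the target genes went both ways, with Hes1 and Nrarp higher and Hey1 and Hey2 lower. Of 17 members 7 were called higher and 4 lower, with a median of 0.08. That is 64.7% called, against 19.2% of all genes and 32.3% of genes above background on all arrays. Notch1, a receptor known from the endocardium, ranged from 7.41 to 9.85 in working cells, and in AV canal cells it had a median of 11.39 and a highest value of 11.77. The groups did not overlap, and the difference was 2.23 (SE 0.41, limma adjusted p = 0.0025), or 1.60 without working replicates 5 and 6. Notch4 differed by 1.55 and Notch3 by 0.82. Nrarp, a feedback inhibitor of Notch signalling, ranged from 7.28 to 8.10 against 8.25 to 9.12, a difference of 0.96 (SE 0.18, limma adjusted p = 0.0033). Hes1, a target repressor, differed by 0.54 (SE 0.12, limma adjusted p = 0.0071), and neither gene had overlapping groups. Hey2, a repressor of the ventricular chambers, ranged from 7.86 to 8.36 against 6.60 to 7.39, a difference of −1.08 (SE 0.13, limma adjusted p = 1.22e-04). Hey1 ranged from 10.52 to 11.19 against 10.52 to 10.72, overlapping groups. Its difference of −0.35 lost its call within slide 1, with median scaling and without working replicates 5 and 6. With median scaling, 2 members were called lower. Jag1 differed by −0.46 and Jag2 by −0.31, the latter with overlapping groups.

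Members of the Wnt pathway were called higher in 7 of 26 cases and lower in 1. That is 30.8% called, against 19.2% of all genes and 32.3% of genes above background on all arrays. The count is therefore not read as a result about the pathway. Besides Rspo3, Axin2, a feedback target of canonical Wnt signalling, was higher by 1.05 (SE 0.18, limma adjusted p = 0.0018), from 7.67 to 8.42 in working cells to 8.55 to 9.83 in AV canal cells. Wnt5b, a ligand, differed by 1.04 with overlapping groups. The secreted antagonist Dkk1 was at background on all 6 working arrays and above it on all 6 AV canal arrays, at least 1.26-fold higher (limma adjusted p = 0.019). Dkk3, a divergent relative of the Dickkopf antagonists, was the 1 member called lower. It differed by −1.32 (SE 0.19). The count of higher members was 3 without working replicates 5 and 6, with Wnt5b and Dkk1 no longer called.

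Of the 14 leading increases beyond Msx1, Sox9 and Twist1 are in the list of mesenchyme markers and Mmp2 and Hapln1 in the cushion matrix list. The genes with the next largest differences were Serpinf1 (3.69), Sox9 (3.65), Papss2 (3.54), Tgfbi (3.31), Matn4 (3.31), Mmp2 (3.28), Cyp26b1 (3.22), Twist1 (3.14) and Hapln1 (3.03), followed by Clmp, Col26a1, Ramp2, Igfbp7 and Dlk1 at 2.96 down to 2.80. In working cells Papss2 was above background on 4 of 6 arrays and Matn4 and Hapln1 on 5 of 6. Sox9, the transcription factor of cushion mesenchyme and cartilage, ranged from 9.0 to 12.07 in working cells (median 11.30) and from 14.03 to 14.71 in AV canal cells (median 14.41). Working replicates 5 and 6, at 9.0 and 9.02, were well below the other 4 working arrays, which were at 11.29 or more. The difference had an SE of 0.51 (limma adjusted p = 3.74e-04) and was 2.74 without them. Twist1, a helix-loop-helix factor of mesenchyme, was steadier. It ranged from 7.72 to 8.85 against 10.74 to 12 (SE 0.23, limma adjusted p = 4.05e-06) and differed by 2.87 without them. Serpinf1, which encodes a secreted anti-angiogenic protein, differed by 3.0 without those arrays, and Mmp2, a secreted gelatinase, by 2.35. Within slide 2 alone, Matn4, Mmp2, Hapln1, Clmp, Col26a1 and Ramp2 were not called, while the other 9 leading increases were.

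**Figure D2:**
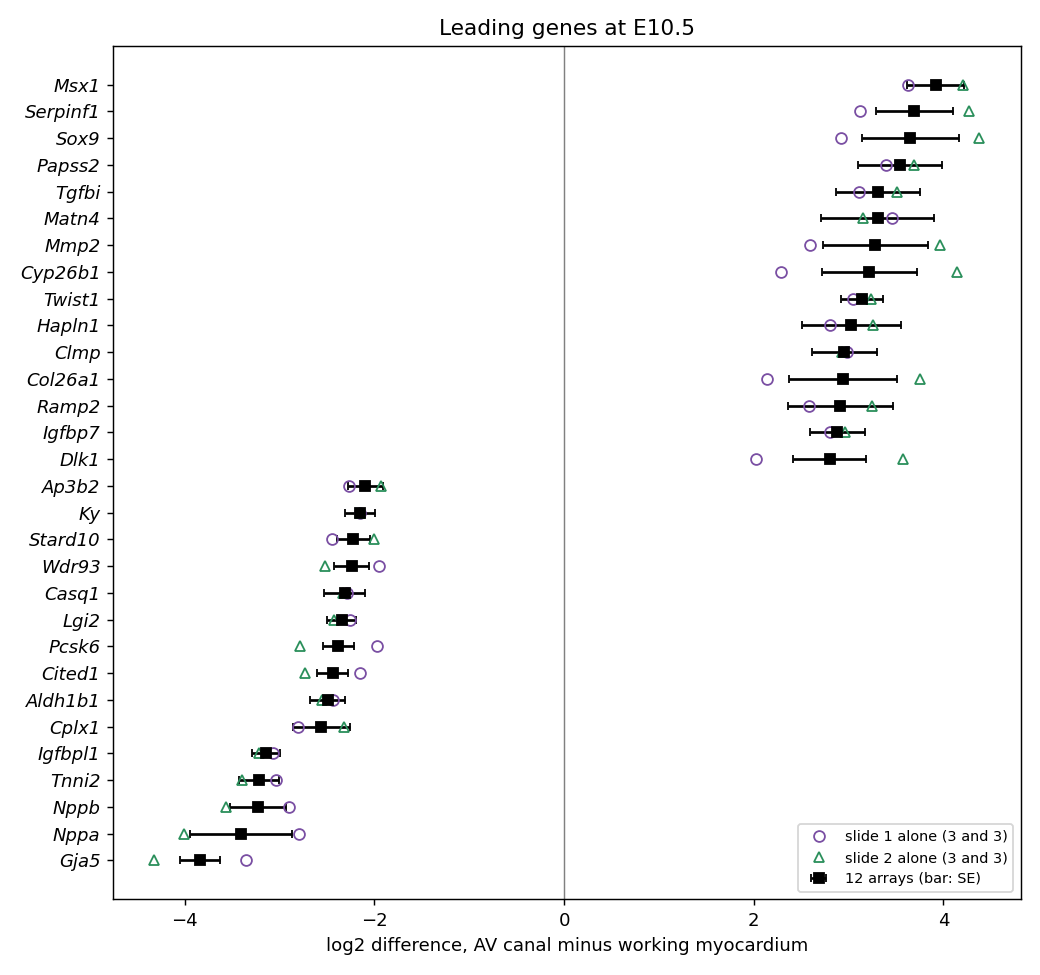
Log2 difference, AV canal minus working myocardium, of the 15 genes with the largest increases and the 15 with the largest decreases: squares with SE bars over 12 arrays, circles within slide 1 and triangles within slide 2. The rule asked for groups that do not overlap, which fixes the direction on each slide. The increases reached 3.92 for Msx1 and the decreases −3.84 for Gja5.

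Among the other leading genes are enzymes. Cyp26b1, an enzyme that degrades retinoic acid, ranged from 7.99 to 10.44 in working cells and from 11.43 to 14.45 in AV canal cells, where replicate 6, at 14.45, stood above the others, of which the highest was at 12.51. Its difference was 2.78 without AV canal replicates 4 and 6, and the groups were apart in either case. Papss2, which makes the sulfate donor used on matrix proteoglycans, ranged from 6.61 to 9.19 against 10.32 to 12.16. Hapln1, the protein that links hyaluronan to proteoglycans, ranged from 6.69 to 9.92 against 10.55 to 12.36. Has2, the hyaluronan synthase needed for cushion jelly, ranged from 8.89 to 10.01 (median 9.35) against 11.28 to 12.52 (median 11.90). The Has2 difference of 2.59 (SE 0.23, limma adjusted p = 1.49e-05) was 6.01-fold, and it moved little without working replicates 5 and 6, at 2.38. Over the cushion matrix list 12 of 20 members were called higher and 2 lower, Col2a1 and Fbln1, with a median of 0.92. That is 70% called, against 19.2% of all genes and 32.3% of genes above background on all arrays. Without working replicates 5 and 6 the counts were 8 and 1, and within slide 2 alone they were 2 and 0. Vcan, the large proteoglycan of cushion jelly, was not called (0.47, limma adjusted p = 0.43). Postn, a matrix protein of valve mesenchyme, depends on the probe and the setting. Its brightest probe was not called (0.27, limma adjusted p = 0.054), but was called within slide 1, without AV canal replicates 4 and 6 and in the authors' processed values. Another Postn probe, above background on 0 of 6 working and 4 of 6 AV canal arrays, was called higher (limma adjusted p = 0.0025).

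The markers of other cell types moved with these genes. Of 14 markers of endothelium and endocardium 12 were called higher and 0 lower in limma (13 and 1 at an unadjusted p under 0.05), with a median of 1.77, and their summed intensity ranged from 3457 to 9077 in working cells and from 10670 to 29820 in AV canal cells. Of 12 markers of cushion mesenchyme and fibroblasts 8 were higher and 0 lower (11 and 0 unadjusted), with a median of 1.31, and their summed intensity ranged from 2165 to 14550 against 29000 to 49540. Neither sum overlapped between the tissues. The shares called were 85.7% and 66.7%, against 19.2% of all genes. Pecam1, an adhesion molecule of endothelial cells, ranged from 6.87 to 10 in working cells and from 10.38 to 11.98 in AV canal cells, a difference of 2.55 (SE 0.51, limma adjusted p = 0.0044). Cdh5, the endothelial cadherin, was detected on 3 of 6 working arrays and on every AV canal array. The uncalled endothelial markers were Kdr, with 2 probes that disagree in direction, and Npr3. Without working replicates 5 and 6 the counts were 11 of 14 and 6 of 12 and the medians 1.29 and 0.77, and within slide 2 alone, 1 and 2 members were called. The part of these cells in the differences of the matrix, Notch, Id and other genes was not tested.

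**Figure D3:**
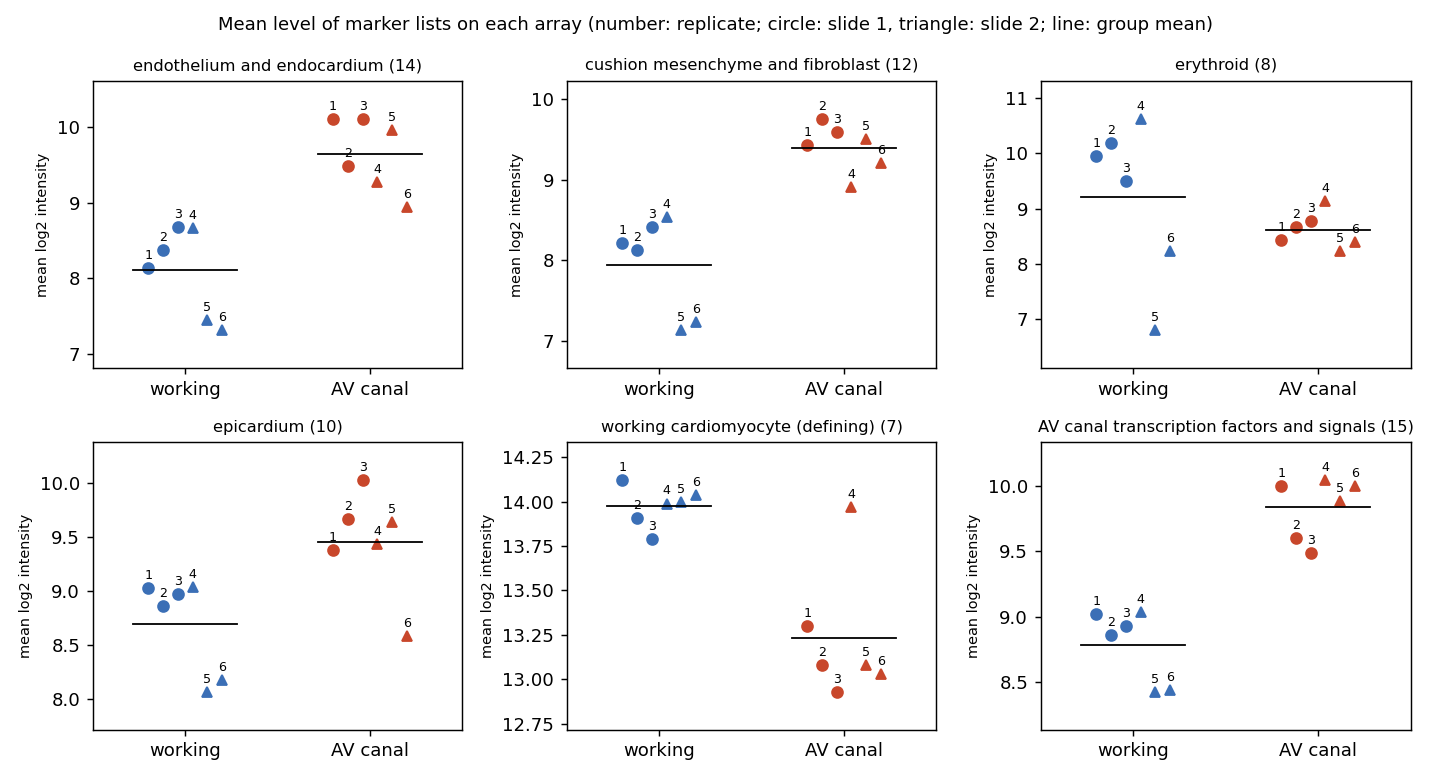
Mean log2 level of marker lists on each of the 12 arrays, by tissue and replicate. Working replicates 5 and 6 stand lowest in endothelial and mesenchymal markers (7.45 and 7.31 for endothelium), and AV canal replicate 4 stands at 13.97 for cardiomyocyte markers, among the working arrays.

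Few epicardial markers were called, and blood markers were carried by some arrays. Of 10 epicardial markers, 8 were above background on any array. In limma 1 was called higher, Wt1 (1.14, SE 0.28, limma adjusted p = 0.015), with a list median of 0.65. That is 10% called, against 19.2% of all genes (8.93% called higher), so the count is not read as a result about the epicardium. Without working replicates 5 and 6 the count was 0, with Wt1 at 0.81 (limma adjusted p = 0.087), and within slide 2 alone it was also 0. The count was 5 within slide 1 alone and without AV canal replicate 6, and 7 without AV canal replicates 4 and 6. Of 8 erythroid markers 2 were called higher in limma, Klf1 and Epor, and 0 lower (2 and 2 unadjusted). Summed erythroid intensity ranged from 900.3 to 51160 in working cells and from 4128 to 10370 in AV canal cells. The embryonic globin Hba-x was at 12.17 to 14.05 in working replicates 1 to 4, at 6.50 and 10.16 in replicates 5 and 6, and at 9.09 to 11.24 in the AV canal. It was not called (−1.61, limma adjusted p = 0.45), but was lower in the AV canal by 3.24 without those 2 working arrays. Without working replicate 5 alone, 5 of 8 erythroid markers were called lower. Klf1, an erythroid transcription factor, was higher by 1.97 (limma adjusted p = 9.89e-04) and Epor by 0.34 (limma adjusted p = 0.015). Among leukocyte markers 0 of 8 were called higher in limma and 1 lower, Lyz2 (0 and 4 unadjusted). Among 6 smooth muscle markers 1 was called higher, Acta2, and 3 lower, with a median of −0.25. Among neural crest and neuron markers 1 of 6 was called, Sox10. It was detected on 1 of 6 working arrays and on every AV canal array, and ranged from 6.05 to 6.76 against 7.31 to 8.38 (limma adjusted p = 5.66e-05). Of these 6 markers, 3 were above background on any array. The shares called were 25% of erythroid, 12.5% of leukocyte, 66.7% of smooth muscle and 16.7% of neural crest and neuron markers. Over all genes the share was 19.2%. Apart from smooth muscle, these counts are near that share and are not read as results about the cell types.

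Chamber myocardium genes were lower in the AV canal. Of 23 measured members 13 were called lower and 1 higher, with a median of −0.76. That is 60.9% called, against 19.2% of all genes. The 13 include Nppa, the gene used to sort the working cells, whose direction follows from the sorting. Gja5, a gap junction protein of fast-conducting myocardium, had the largest decrease of the genes named by rule. It ranged from 10.33 to 11.21 in working cells (median 10.99) and from 6.44 to 7.44 in AV canal cells (median 7.18). All working arrays lay far above all AV canal arrays, and the gene was detected above background on only 4 of the AV canal arrays. Its difference was −3.84 (SE 0.21, limma adjusted p = 4.62e-07). It rests on 1 of 4 Gja5 probes, since the other 3 were at background everywhere. Nppb, the natriuretic peptide gene next to Nppa, ranged from 13.86 to 14.42 against 9.40 to 11.55, a difference of −3.23 (SE 0.29, limma adjusted p = 1.89e-05).

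Transcriptional regulators of the chambers were part of the decrease. Cited1, a transcriptional coactivator, ranged from 9.49 to 10.39 in working cells and from 7.11 to 7.85 in AV canal cells, and differed by −2.44 (SE 0.16, limma adjusted p = 2.44e-06). Irx3, a homeobox gene of the trabecular conduction system, differed by −1.47 (SE 0.22), and Irx4, a homeobox gene of the ventricles, by −1.19 (SE 0.14). Both had groups that did not overlap. The atrial list had 7 of 12 members lower and 0 higher in limma (9 and 0 unadjusted). The ventricular list had 4 of 9 lower, Hey2, Irx4, Mybphl and Pln, and 1 higher, Myl3. The medians of the 2 lists were −0.62 and −0.79, and 58.3% and 55.6% of members were called, against 19.2% of all genes. Summed intensity of the ventricular list overlapped between the tissues, at 103800 to 123700 in working and 99490 to 123600 in AV canal cells. That of the atrial list did not, at 142100 to 177000 and 83930 to 137600. Nppa, the sorting gene, is also among the 7 lower atrial members. Gja1, the main gap junction gene of ventricular muscle, differed by −0.80 (SE 0.20, limma adjusted p = 0.017), with AV canal replicate 6, at 14.16, inside the working range of 13.65 to 14.29. It lost the call within slide 2 and without working replicates 5 and 6 (−0.72, limma adjusted p = 0.10). Without working replicates 5 and 6 the chamber list had 11 lower members, and within slide 2 alone it had 7.

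The other leading decreases held muscle genes and genes of other functions. Tnni2, the fast skeletal troponin inhibitor, ranged from 13.24 to 13.54 in working cells and from 9.15 to 10.82 in AV canal cells and differed by −3.22 (SE 0.21, limma adjusted p = 2.32e-06). Igfbpl1, a relative of insulin-like growth factor binding proteins, had a tight spread, from 11.58 to 11.86 against 7.97 to 8.95, and the smallest adjusted p of the leading genes (limma, 2.24e-07; difference −3.15). Casq1, a calsequestrin that stores calcium, differed by −2.31, Aldh1b1, a mitochondrial aldehyde dehydrogenase, by −2.49, and Pcsk6, a proprotein convertase that processes TGF-beta family ligands, by −2.38. Cplx1, a complexin of vesicle fusion, differed by −2.56 with AV canal replicate 3 at 6.45, below the other 5. Lgi2, Wdr93, Stard10, Ky and Ap3b2 completed the 15, at −2.34 to −2.10. In all 15 leading decreases the 6 working arrays lay above the 6 AV canal arrays, which the rule for naming them required.

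Contractile, calcium handling and energy genes were lower as groups. Of 28 sarcomere genes 16 were called lower and 4 higher, with a median of −0.70. Of 16 calcium handling genes 9 were lower and 0 higher in limma (11 and 0 unadjusted), with a median of −0.92. Of 31 energy metabolism genes 22 were lower and 0 higher (24 and 0 unadjusted), with a median of −0.61. The shares called were 71.4% of sarcomere, 56.2% of calcium handling and 71% of energy genes. Over all genes the share was 19.2%, and over genes above background on all arrays 32.3%. Ryr2, the calcium release channel, ranged from 13.36 to 13.69 in working cells and from 11.63 to 12.94 in AV canal cells and differed by −1.47 (SE 0.19, limma adjusted p = 1.77e-04). Pln, which restrains the calcium pump, ranged from 13.57 to 13.96 against 11.46 to 12.55 (−1.65, SE 0.15), and Casq2, the cardiac calsequestrin, differed by −1.23. Acta1, skeletal alpha-actin, differed by −1.59 and Myom1, a protein of the sarcomere M-band, by −1.71. Mb, or myoglobin, differed by −2.00, Cpt1b, which imports fatty acids into mitochondria, by −1.52, and Esrra, a nuclear receptor of mitochondrial genes, by −1.36. The highest AV canal values of Ryr2 and Acta1, at 12.94 and 14.01, were in replicate 4. With all 24 arrays of the study in 1 fit, 8 sarcomere genes were called lower. Within slide 2, which holds that array, 4 sarcomere, 4 calcium handling and 7 energy genes were called lower.

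Not all muscle genes were lower. Tnnt2, the cardiac troponin that anchors the inhibitory complex, differed by 0.13 and Myl2, a ventricular light chain, by 0.16, neither of them called, although Myl2 was called without AV canal replicate 6; both probes read at 64.2% or more of the brightest value of their array on every array, where differences can be compressed. Myl3 (0.31) and Acta2 (0.31) were called higher but also lie near the ceiling and lost the call within each slide, and 2 dimmer Acta2 probes were called lower, at −1.94 and −1.82. Tpm1, a tropomyosin, and Pdlim3, a Z-disc protein, were higher by 1.73 and 1.71 at levels far from the ceiling. The Tpm1 difference was 1.06 without working replicates 5 and 6. The Pdlim3 groups did not overlap (SE 0.21, limma adjusted p = 1.56e-04). Among 12 core cardiac transcription factors 4 were lower and 0 higher in limma (4 and 3 unadjusted), and 3 were higher without AV canal replicates 4 and 6. The 33.3% called is near the 32.3% of genes above background on all arrays (19.2% of all genes). The count shows nothing about these factors as a group. Nkx2-5, a homeobox factor of cardiac muscle, differed by −0.97 (SE 0.20, limma adjusted p = 0.0050) with AV canal replicate 4 at 10.58 inside the working range. Myocd, the co-activator of serum response factor, differed by −1.46 (SE 0.20), and Mef2c by −0.85. The Gata4, Gata5, Gata6, Tbx5 and Tbx20 genes were not called. Of 7 defining markers of cardiomyocytes all were above background and 5 were lower, and their mean log2 level was 13.79 to 14.12 on working arrays and 12.93 to 13.30 on AV canal arrays other than replicate 4, at 13.97.

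**Figure D4:**
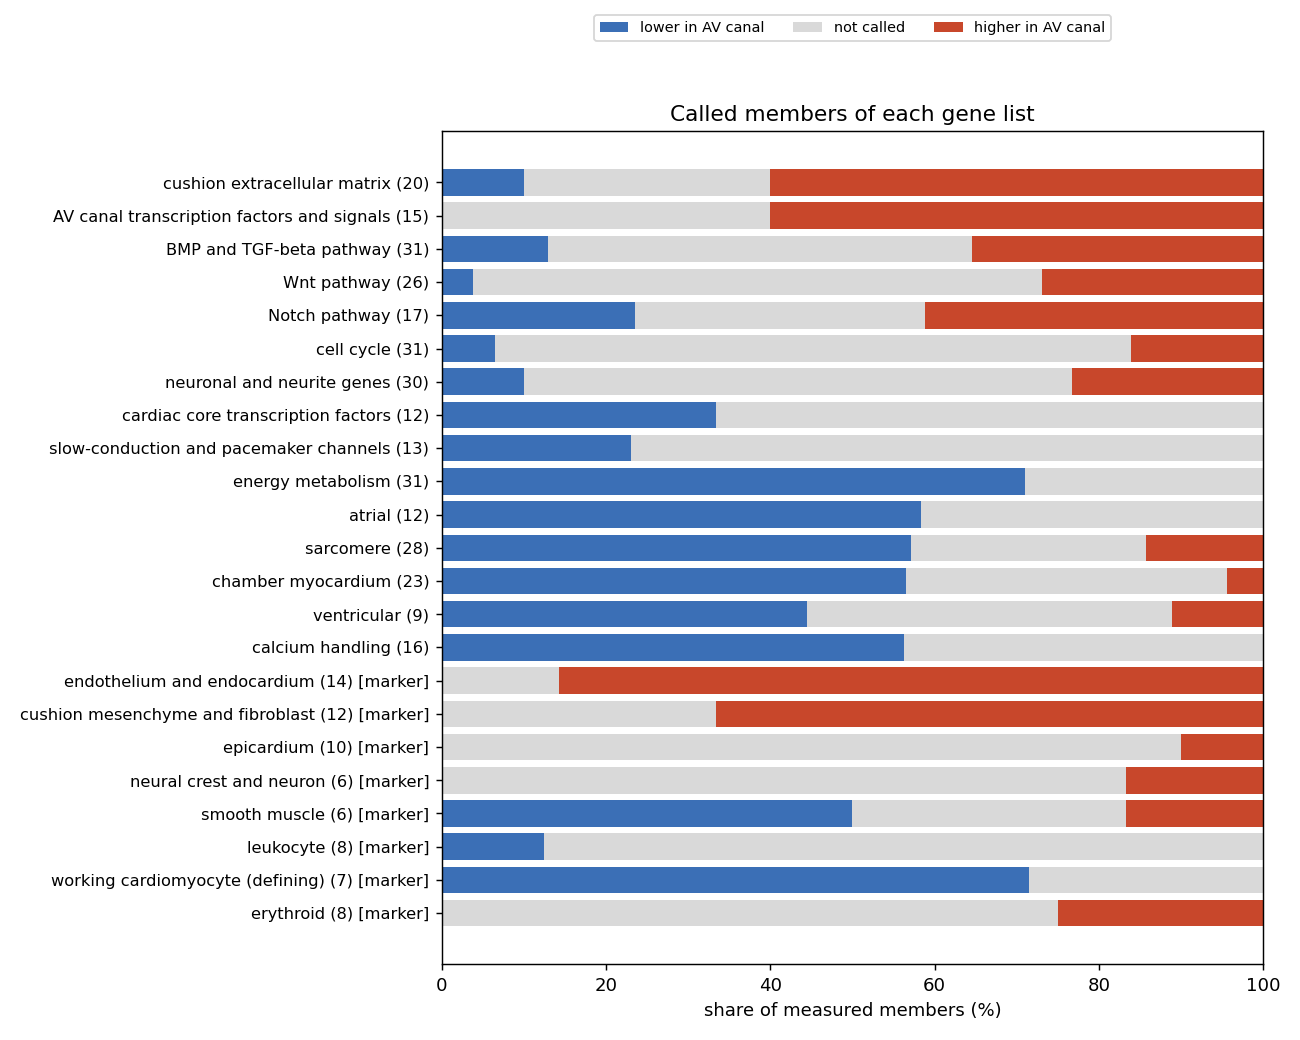
Share of the measured members of each gene list and marker list called lower (blue), not called (grey) and called higher (red) in the AV canal, with the number measured in brackets. Endothelial markers stand at 85.7% called, all higher, and energy metabolism at 71.0%, all lower, against 19.2% over all genes in both directions.

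Few ion channels and gap junctions of slow conduction were called. Of 13 measured genes 0 were called higher and 3 lower in limma, Kcnj3, Kcnj5 and Popdc2, with a median of −0.13. At an unadjusted limma p under 0.05 the counts were 2 higher and 7 lower. The share called was 23.1%, against 19.2% of all genes and 32.3% of genes above background on all arrays. No direction of the group is read from these counts. The count of lower genes was 0 without working replicates 5 and 6 and 5 without AV canal replicate 4. Hcn4 and Hcn2, the pacemaker channels, were at background on all 12 arrays, so the array gives no level for them. Cacna1g, a T-type calcium channel, was at 6.67 to 7.25 in working cells and at 7.36 to 7.89 on 5 AV canal arrays and 9.66 in replicate 6. Its groups did not overlap, but the difference of 0.99 had an SE of 0.32 and a limma adjusted p of 0.063. It was called without AV canal replicate 6 and without replicate 3. Gjc1, a gap junction protein of slow-conducting myocardium, ranged from 11.33 to 11.71 against 11.60 to 12.07 and was not called (0.24, SE 0.10, limma adjusted p = 0.16). Gjd3 was not called either (−0.13, limma adjusted p = 0.21).

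Genes of neurites and of the cell cycle had counts nearer the background. Of 30 neuronal and neurite genes 7 were higher and 3 lower, with a median of 0.02. That is 33.3% called, against 19.2% of all genes and 32.3% of genes above background on all arrays. The count shows nothing about these genes as a group. Of the 30, 24 were above background on any array, and Ina, 1 of the 3 lower, was not among them. Ncam1, a neural and myocardial adhesion molecule, differed by 1.85 (SE 0.24, limma adjusted p = 2.32e-04), and Gap43, a growth cone protein, by 1.67 (SE 0.18, limma adjusted p = 6.43e-05). Nrn1, a neurite outgrowth factor, differed by 1.75. The guidance receptor Robo1 was higher by 0.91, and its ligands Slit2 and Slit3 were lower, at −0.69 and −0.82. Of 31 cell cycle genes 5 were higher and 2 lower, with a median of 0.04. That is 22.6% called, close to the 19.2% of all genes and below the 32.3% of genes above background on all arrays, so the count shows nothing about cell cycle genes as a group. Of its members, Ccnd1, a D-type cyclin, went from 11.62 to 12.11 in working cells to 12.61 to 13.36 in AV canal cells, a difference of 1.19 (SE 0.13, limma adjusted p = 5.82e-05). The cell cycle counts were 2 and 0 without working replicates 5 and 6.

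**Figure D5:**
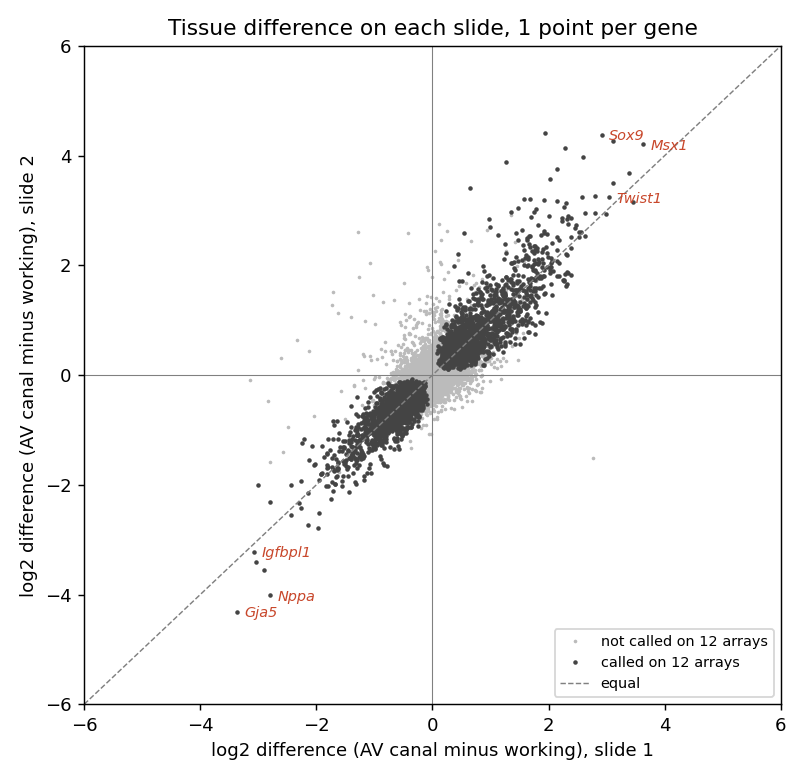
Log2 difference of each gene within slide 1 (x axis) and within slide 2 (y axis), AV canal minus working myocardium, with called genes in dark grey, other genes in light grey and a diagonal of equal differences. The genes were called on both slides together, which favours a shared sign among called genes, and the shared sign is not a check of one slide by the other. Within slide 1 alone 15.2% of genes were called and within slide 2 alone 4.93%.

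The leading genes were also measured in the AV node and working myocardium at E17.5, on 12 other arrays. Of the 31 genes named by rule, 15 had a tissue difference that changed with stage (limma interaction, adjusted p under 0.05), 7 to a larger one and 8 to a smaller or opposite one. The share over all genes was 14.5%, but these genes were chosen on their E10.5 difference, which the interaction contains, so nothing is read from their count and the values are a description. Tbx3 differed by 1.95 at E10.5 in this joint fit and by 4.16 at E17.5, and Nppb by −3.20 and −7.37. Dlk1, a non-canonical Notch ligand, differed by 2.77 and −0.13, and Pcsk6 by −2.34 and 1.88, so that Pcsk6 was lower in the AV canal and higher in the AV node. Twist1 (3.05 and 3.09), Sox9 (3.59 and 3.35) and Igfbpl1 (−3.07 and −3.16) had no called change between the stages. The slide codes in the sample names cover E10.5 arrays only, and the names of the E17.5 arrays carry none. The labels thus do not say whether the stages were hybridised apart, and an effect of hybridisation could not be told apart from stage.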

How the data were processed

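The deposited table holds linear probe intensity for 46667 rows, not background-corrected or normalised by the authors, with no detection p-values. Per the submitters' processing notes limma was used, with no version or step given. The scanner software is not given in the sources used. Identical rows were dropped and rows of 1 identifier averaged, which left 46632 probes. With limma 3.58.1 in R 4.3.3, the 12 arrays at E10.5 underwent normexp background correction (offset 50) and log2 and quantile transformation, and a model with 2 group means and moderated variance (10 residual and 3.03 prior degrees of freedom) was fitted. The stage test used all 24 arrays, normalised together. A probe was above background when it exceeded its array's main intensity peak by 3 SDs of the lower side.

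Genes came from GEO's platform annotation, in which the RefSeq symbols looked up by gene ID changed 0 names: 29976 probes had 1 gene, 10 several and 16646 none. The brightest probe stood for a gene. Named by rule were Tbx3, Nppa, the 15 largest increases and the 15 largest decreases among called genes whose groups did not overlap and which were above background on all arrays of the brighter group, and the members of 15 gene lists and 8 marker lists. The members and lists were chosen with earlier results of these data known.

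The authors' processed table, log2 values by comparison with the intensities and with column medians of 3.96 to 4.00, has an unstated normalisation and served as an alternative. Other alternatives were the background correction, offset, scaling, a filter on dim probes, the variance model, array weights, slide or replicate number as a block, each slide alone and leaving out arrays. In simulated data for this comparison, 200 of 46632 probes had a tissue difference and another 200 a slide difference. All of these were above the median level, and noise was independent between probes. Recovered were 16.4% of changes of 0.5, 82.1% of changes of 1 and 98.5% of changes of 2 on the log2 scale, with 4 false calls. In the data 12.2% of probes were called, a far larger share than was changed in the simulation, so these rates do not carry over directly. The number of arrays limits the precision.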

Additional observations from a re-analysis of the deposited data

Results flagged for a closer look

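Single arrays stood apart from the other 5 of their group by Dixon's criterion in 19 of 224 groups, where chance gives about 11.2. AV canal replicate 6 was low for Nppa (9.03), Nppb (9.40), Id2 (9.72) and Myl2 (15.32) and high for Cyp26b1 (14.45), Dkk1 (7.81) and Cacna1g (9.66). AV canal replicate 4 was low for Serpinf1 (12.40) and Ccnd1 (12.61) and high for Bmp7 (11.06), Bmp5 (7.97) and the embryonic globin Hbb-bh1 (12.42). Replicate 3 of the AV canal was low for Cplx1 (6.45), and replicate 5 was high for Hes1 (9.76). Among working arrays, replicate 1 was high for Stard10 (12.74) and low for Gja1 (13.65), replicate 2 was low for Dkk1 (6.33), replicate 3 was high for Sox10 (6.76) and replicate 5 was low for Ccnd1 (11.62). All values are log2 levels.

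Of the 31 genes named by rule, 15 had a tissue difference that changed with stage by the limma interaction, which contains the E10.5 difference the genes were chosen on. The values here are the E17.5 difference minus the E10.5 difference on the log2 scale. Genes higher in the AV canal changed by 2.21 for Tbx3, 1.75 for Msx1, −1.94 for Tgfbi, 1.60 for Clmp, −2.13 for Col26a1 and −2.90 for Dlk1. Genes lower in the AV canal changed by −3.23 for Nppa, −4.18 for Nppb, 1.36 for Cplx1, −2.05 for Aldh1b1, 4.23 for Pcsk6, 1.07 for Lgi2, 2.08 for Wdr93, −0.86 for Stard10 and 1.87 for Ap3b2. A positive change in a gene lower in the AV canal is a smaller difference at E17.5, and for Pcsk6 an opposite one.

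The tissue difference of 1 probe, ILMN_2623859 of Abcc9, a subunit of the ATP-sensitive potassium channel, differed between the slides by 1.72 on the log2 scale (SE 0.13, limma adjusted p = 0.0018). The probe was above background on 3 of 6 working arrays and 0 of 6 AV canal arrays, and the difference was −1.92 on slide 1 and −0.20 on slide 2. A brighter Abcc9 probe differed by −1.67 and −1.98.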

How the results depend on the processing

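The count of called probes, 5686, became 1454 within slide 2 alone, 3549 without working replicates 5 and 6, 1065 with a 2-fold minimum, 6500 without AV canal replicates 4 and 6, and ranged from 4630 to 6209 when 1 array was left out. The 2-fold minimum lowers the count by construction. Slide 1 has as many arrays as slide 2 and called 4317 probes, and the cause of the lower count within slide 2 and without the 2 working arrays was not tested. Probes at least 2-fold different were 2190 in the authors' processed values and 560 within slide 2. The slide difference, called for 1 probe, was called for 0 in limma without working replicates 5 and 6, where 1688 probes had an unadjusted p under 0.05. Single genes were followed over the alternatives for 112 genes, the 31 named by rule and others chosen from the lists. None of these that was called reversed its direction. The larger share of called probes did change side with the scaling: 45.01% were higher in the AV canal with quantile normalisation, 56.1% with median scaling, 53.1% with cyclic loess and 53.6% in the authors' processed values. Of the 112 genes followed, 95 were called. Over the alternatives a call was lost in 130 of their values, 44 of them within slide 2, and gained in 48. Other genes named in the text, such as Shox2 and Nrarp, are not in these counts. Replicate numbers do not pair the samples: same-numbered arrays had correlations of deviations from −0.07 to 0.14, with 3 of 6 above 0.1. No working sample was closest to its own number. Between the tissues, arrays of other numbers on the same slide had a mean correlation of 0.13, and arrays on different slides −0.10. Deviations were thus shared by slide, and the main model has no slide term. With slide as a block 6177 probes were called. The replicate block called 5375 probes. No alternative was run for the stage comparison. Probes near the ceiling of an array and probes at background limit what can be seen, since differences are compressed in both ranges.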
